A study of Sus scrofa with 16 samples.

Results

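The change in left ventricular transcripts with exercise training was examined in gilts, young female pigs, taken apart from the males of the same experiment. The gilts were chosen by the female label alone and gave 8 of the 16 arrays in the series: exercised gilts 1, 2, 4 and 6, and sedentary gilts 1, 2, 4 and 8. All animals were Yorkshire x Landrace crosses aged 2 to 3 months, and RNA was taken 4 to 5 weeks after the exercise protocol or the sedentary period began. The males were all barrows, that is castrated, in 4 exercised and 4 sedentary animals. They enter here only as separate animals against which the gilt values are set. Labelled cRNA made from total RNA of frozen left ventricle was read on Affymetrix porcine arrays in 1 colour, and each animal had its own array. The form, speed and duration of the exercise are not given in the sources used here. At this age the gilts can be taken as not yet through puberty, which limits them as a model of the adult female heart.

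Endurance training makes the heart larger without the loss of function seen in disease, a state called physiological hypertrophy. Heart muscle burns mainly fatty acids, with ketone bodies, lactate and glucose as further fuels, and its contraction is set by calcium released through the ryanodine receptor. A separate class of genes, the immediate early genes, is switched on within minutes by stretch, hormones or injury and then quickly switched off again. Each of these systems was covered by gene lists and is described below in the gilts.

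The arrays carried the signature of heart ventricle. The 13 measured cardiomyocyte markers of 15 listed averaged 13.66 to 13.78 log2 in exercised and 13.57 to 13.73 in sedentary gilts, against a median of 6.24 over all probe sets. The Y-linked genes SRY and EIF1AY were near the bottom of the scale in gilts, at mean levels of 4.04 and 3.33 log2, and the female-specific transcript XIST had no named probe set. Array by array, each gilt correlated with the mean of the other gilts at 0.983 to 0.995. The lowest value belonged to sedentary gilt 8, which was also the only gilt on an array with low poly-A control signal, the bacterial RNA spiked in before labelling. That signal was 6.31 log2 on its array and 7.22 to 7.96 on the other gilt arrays. Within gilts this array group and that animal cannot be told apart. The first principal component of the gilts, holding 33.3% of their variance, set sedentary gilt 8 at 53.96 against -18.4 to 8.54 for the other gilts. The second, with 24.5%, separated the training groups, at -24.0 to -9.61 in exercised and 0.63 to 29.8 in sedentary gilts. A two-sided exact permutation test over the 70 assignments gave p = 0.0286 for it, the smallest this design can give, or 0.143 after Benjamini-Hochberg adjustment over 5 array measures. The poly-A signal, the 3' to 5' gaps of actin and GAPDH and the first component had exact permutation p-values of 0.343 to 0.543.

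Training was accompanied by many small differences in gilts. In limma 607 of 23935 probe sets had an adjusted p under 0.05, a share of 2.54%, with 332 higher and 275 lower in exercised gilts. They carried 218 gene symbols, and 383 of them had no single symbol. At an unadjusted p under 0.05 there were 4654. The median size among the 607 was 0.55 log2, 386 reached 0.5 and 21 reached 1. In all 607 the exercised and sedentary gilts did not overlap. Over all probe sets the groups did not overlap in 7.37% with the exercised gilts above and in 6.37% with them below.

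Most called transcripts were dim. The mean level of the 607 had a median of 5.13 log2, and 65.2% of them had levels no higher than the 40th percentile, 5.57 log2. With the probe sets cut into 10 equal bins of level, the called share was largest in bin 4, at 6.44%, and was 0.919% in the brightest bin. Only 86 called probe sets, with 39 gene symbols, lay at or above the 60th percentile, 6.88 log2. When the test was restricted to the 9574 probe sets above that percentile, 1 passed, a probe set of OXCT1. Among the 14361 above the 40th percentile, 12 passed.

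The count also rested on each animal. Without exercised gilts 1, 2, 4 or 6 in turn the called probe sets numbered 65, 119, 44 and 135, and without sedentary gilts 1, 2, 4 or 8 they numbered 109, 39, 146 and 732. Leaving out sedentary gilt 8, the animal on the low poly-A array, thus raised the count, and 493 of the 607 were called there too. In a fit to all 16 arrays with the poly-A array group as a block 1302 probe sets passed for gilts, 539 of them among the 607. The spread in that fit came from the barrows as well. Without the block the fit to all 16 arrays gave 890. Of the 50 called genes named below, 11 missed with the block. All of these were among the 15 that missed without it. The part of the array group in these misses was not tested. Only 32 of the 607, with 12 symbols, were called in every one of the 8 fits that left out a gilt. For the genes below, the number of these 8 fits in which the gene passed is therefore given. As the groups did not overlap in any call, leaving out a gilt could not turn the sign of the 50 called named genes. Their adjusted p-values in these fits were at most 0.127.

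**Figure D1:**
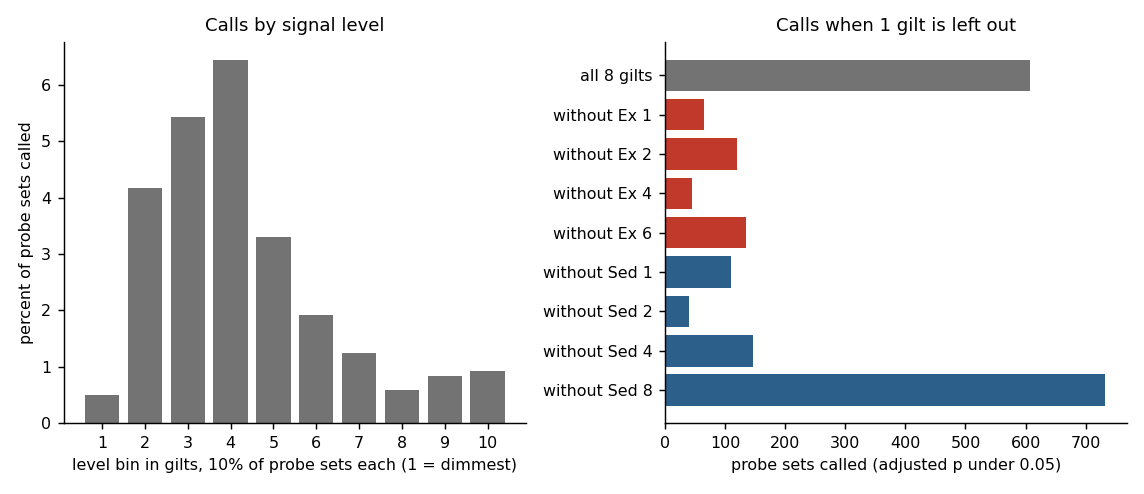
Left, the percent of probe sets called in gilts in 10 bins of mean level, from the dimmest (1) to the brightest (10), with 6.44% in bin 4. Right, bars show the number of called probe sets with all 8 gilts (607) and with each gilt left out, which ranged from 39 without sedentary gilt 2 to 732 without sedentary gilt 8.

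Fuel metabolism supplied the rise that held best among well-detected genes. OXCT1 codes for succinyl-CoA transferase, which activates ketone bodies so that mitochondria can burn them. Its signal was 10.44, 10.44, 10.54 and 10.59 log2 in the exercised gilts and 9.56, 9.67, 9.47 and 9.39 in the sedentary gilts. Every exercised gilt was above every sedentary gilt by a wide margin relative to the spread within groups. The means were 10.50 ± 0.08 and 9.52 ± 0.12 (SD, n = 4 each), a 1.97-fold rise (log2 0.98, SE 0.0874, limma adjusted p = 0.00642). It passed in all 8 fits with a gilt left out, and among bright probe sets alone (adjusted p = 0.0218). A second, brighter OXCT1 probe set was 0.39 higher and did not pass (adjusted p = 0.086).

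Genes of glycogen handling changed in both directions. PPP1R3B, a subunit that brings protein phosphatase 1 to glycogen and so favours its synthesis, read 8.10, 7.86, 7.78 and 7.76 log2 in exercised and 6.69, 7.04, 7.39 and 7.00 in sedentary gilts. It rose by 0.85 (SE 0.148, limma adjusted p = 0.0293), and passed in 2 of the 8 fits with a gilt left out. STBD1, a protein that tethers glycogen to membranes, read 7.74, 8.16, 7.83 and 7.72 against 8.44, 8.37, 8.34 and 8.78, and fell by 0.61 (limma adjusted p = 0.0499, in 0 of the 8 fits). With the arrays blocked by poly-A group STBD1 changed by -0.55 (adjusted p = 0.0692). The dimmer STBD1 probe set changed by 0.05. The groups did not overlap for either gene, but neither passed among bright probe sets alone (adjusted p = 0.146 and 0.201).

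Mitochondrial genes mostly did not pass. ATP5L, which codes for a small subunit of ATP synthase, rose by 0.68 from 7.19 ± 0.32 to 7.87 ± 0.04 (limma adjusted p = 0.0472, in 2 of the 8 fits), on a probe set that is not its brightest. The brightest ATP5L probe set was 0.14 higher (adjusted p = 0.384). PPARGC1A, the coactivator that drives mitochondrial biogenesis, moved the other way. It read 9.97, 9.87, 9.94 and 9.80 log2 in exercised and 10.22, 10.29, 10.28 and 10.56 in sedentary gilts, a fall of 0.45 without overlap (limma adjusted p = 0.0472, in 1 of the 8 fits). In the fit to all 16 arrays with the poly-A array group as a block its change was -0.40 (adjusted p = 0.241). Without the block the adjusted p of that limma fit was 0.228. MSTO1, a protein of mitochondrial shape, fell by 0.66 from 7.36 ± 0.29 to 6.70 ± 0.06 (limma adjusted p = 0.0457, in 1 of the 8 fits).

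Each gene of a list was read on its brightest probe set. On that basis 1.02% of the 6765 genes rose, 0.872% fell, and their median change was 0.02 log2. The change was above 0 in 53.5% of them, the share against which the sign counts of all lists stand. Of 60 measured oxidative phosphorylation genes 0 passed, with 41 above 0 and a median change of 0.08. Of 43 fatty acid oxidation genes 0 passed (median 0.04), and of 21 genes of the tricarboxylic acid cycle and ketone use 0 passed (median 0.07). Of 21 genes of mitochondrial biogenesis and dynamics PPARGC1A and MSTO1 fell and 0 rose (median 0.04). Of 31 genes of glycolysis, glucose uptake and glycogen PPP1R3B alone rose (median 0.01). NDUFV2, a subunit of respiratory complex I, fell by 0.50 (adjusted p = 0.0411, in 1 of the 8 fits) on a dim probe set, while its brightest was 0.06 higher (adjusted p = 0.76).

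The largest fall among named genes was that of NR4A3, an orphan nuclear receptor and immediate early gene. It read 6.24, 7.72, 7.40 and 7.76 log2 in exercised and 9.61, 9.38, 8.91 and 9.79 in sedentary gilts, without overlap. The means of 7.28 ± 0.71 and 9.42 ± 0.38 differed 4.42-fold (log2 -2.14, SE 0.332, limma adjusted p = 0.022), and the call was kept in 5 of the 8 fits with a gilt left out. Without exercised gilt 4, sedentary gilt 1 or sedentary gilt 2 its adjusted p was 0.0663, 0.0599 and 0.071. The dimmer NR4A3 probe set changed by -0.88. KLF4, a transcription factor of vessel wall and stress responses, read 7.61, 8.11, 8.15 and 8.26 against 8.94, 9.09, 8.89 and 8.81. It fell by 0.90 (SE 0.142, adjusted p = 0.0232, in 3 of the 8 fits). DUSP1, a phosphatase that switches off MAP kinases, read 9.68, 9.73, 10.06 and 10.39 against 10.88, 11.18, 10.56 and 10.99, and fell by 0.94 (SE 0.181, adjusted p = 0.0368, in 2 of the 8 fits). Neither KLF4 nor DUSP1 overlapped between groups.

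Other fast-responding regulators fell with them. CEBPD, a transcription factor induced by glucocorticoids and cytokines, fell by 1.01 from 10.21 ± 0.18 to 9.19 ± 0.30 (limma adjusted p = 0.022, in 2 of the 8 fits). With the poly-A array group as a block its change was -0.89 (adjusted p = 0.0523). HES1, a repressor switched on by Notch, fell by 0.79 from 7.37 ± 0.23 to 6.58 ± 0.22 (adjusted p = 0.031, in 2 of the 8 fits). GADD45B, a stress-induced growth arrest gene, fell by 0.70 (adjusted p = 0.0417, in 1 of the 8 fits) on a probe set that is not its brightest, while the brightest was 0.16 lower (adjusted p = 0.613). With the poly-A array group as a block the change of GADD45B was -0.66 (adjusted p = 0.0986). Among bright probe sets alone NR4A3, KLF4, DUSP1 and CEBPD had adjusted p-values of 0.142 to 0.155, and did not pass.

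Across the immediate early list the changes lay mostly below 0. Of 25 measured genes of 40 listed 3 fell (NR4A3, KLF4 and DUSP1), 0 rose, and 22 had a change below 0, with a median of -0.57 log2 against 0.02 over all genes. Leaving out sedentary gilt 1 brought this median to -0.31, the other left-out gilts kept it between -0.68 and -0.45, and in barrows it was -0.32. Members with changes beyond -1 that did not pass were ATF3 at -1.77, FOS at -1.76, EGR1 at -1.35 and CYR61 at -1.09. ATF3 and CYR61 were chosen for naming after their values were seen. FOS, a subunit of the transcription factor AP-1, read 6.15, 6.66, 8.93 and 6.42 log2 in exercised and 10.68, 8.99, 6.73 and 8.78 in sedentary gilts, so exercised gilt 4 was high, sedentary gilt 4 was low, and the groups overlapped (limma adjusted p = 0.289). EGR1, a zinc-finger factor of the same class, read 6.42, 7.04, 6.91 and 6.48 against 9.60, 8.59, 7.14 and 8.17 on its probe set with the smallest p. Its groups did not overlap, but the spread in sedentary gilts was 1.02 and the difference of -1.66 did not pass (adjusted p = 0.081).

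**Figure D2:**
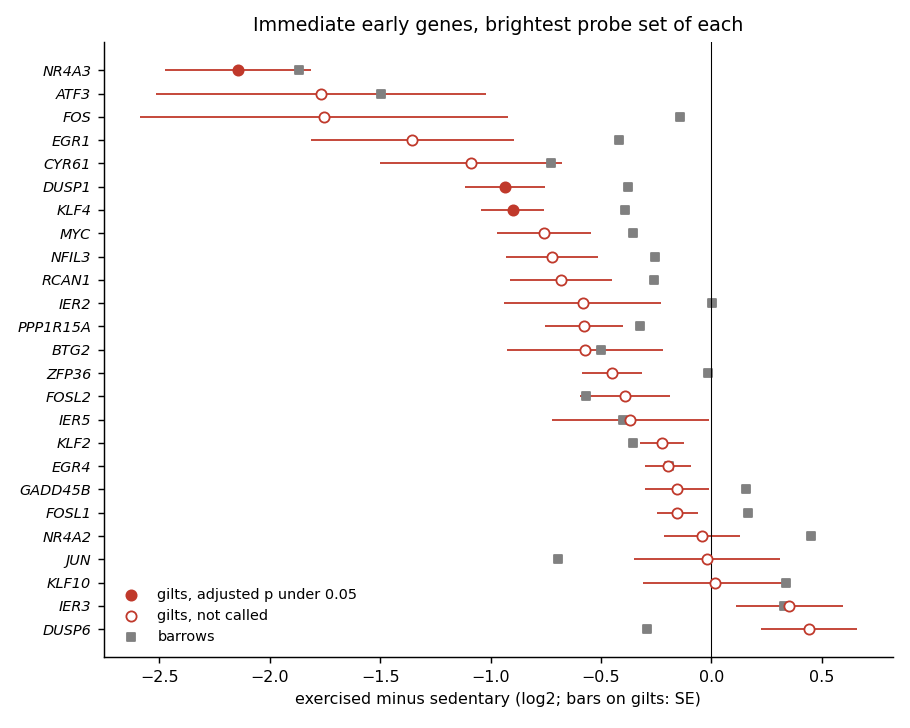
Change in exercised against sedentary gilts (log2, horizontal axis) for the 25 measured immediate early genes, with bars for the SE; filled circles passed in limma, and squares give the change in barrows. In gilts 22 of 25 lie below 0 and 3 passed.

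The level of this list, its mean deviation from the average gilt, was -0.55, -0.18, -0.19 and -0.28 in the exercised gilts and 0.68, 0.39, -0.16 and 0.29 in the sedentary gilts. Sedentary gilt 4 thus sat within reach of the exercised gilts, and sedentary gilt 1 was highest. Sedentary gilt 1 also had the highest level of the 6 measured neutrophil markers, at 0.89 against -0.26 to 0.01 in the other 7 gilts, and of the 4 measured erythroid markers, at 0.59 against -0.23 to 0.02. Most of the neutrophil value came from S100A9, a granulocyte calcium-binding protein at 8.06 log2 in this gilt and 3.92 to 4.57 in the others, and from PTX3, while S100A8 and ELANE were slightly below their means there. Of the erythroid markers ALAS2, at 8.40, and AHSP, at 6.46, were highest in this gilt, while the globin genes HBB and HBE1 were slightly below their means. The mean level of the neutrophil markers ran from 4.24 to 4.41 log2 in exercised and from 4.41 to 5.38 in sedentary gilts. That of the erythroid markers ran from 6.05 to 6.29 and from 6.09 to 6.86. The part of these cells in the differences was not tested. In bulk tissue fewer cells of a type and less RNA per cell cannot be told apart.

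Of 21 genes that glucocorticoids are known to induce, CEBPD and DUSP1 fell and 0 rose, with 19 changes below 0 and a median of -0.21. The median was -0.14 without exercised gilt 2, -0.29 without sedentary gilt 8, and -0.06 in barrows. DUSP1 belongs to both this list and the immediate early list. Of 8 measured circadian clock genes 0 passed (median -0.17), and of 40 heat shock and folding genes 0 passed (median -0.10). HSPA8, a constitutive chaperone, fell by 0.57 only on a dim probe set, at 3.83 against 4.41 log2, while its brightest probe set was 0.18 lower (limma adjusted p = 0.357).

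The sarcomere held the second largest fall among the bright named genes. PDLIM3, which codes for a PDZ and LIM domain protein of the Z-disc, read 7.86, 6.89, 7.72 and 7.36 log2 in exercised gilts and 9.10, 8.997, 8.96 and 9.17 in sedentary gilts. The sedentary gilts lay close together, and every exercised gilt was more than 1 log2 below the lowest of them. The means of 7.45 ± 0.43 and 9.06 ± 0.10 differed 3.04-fold (log2 -1.60, SE 0.191, limma adjusted p = 0.00975). The call held in all 8 fits with a gilt left out, with adjusted p-values of 0.0174 to 0.0445, and missed the threshold among bright probe sets alone (adjusted p = 0.0531).

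MYOZ1, a myozenin that binds calcineurin at the Z-disc of fast muscle, was dim and fell by 0.71 from 5.34 ± 0.12 to 4.63 ± 0.10 (limma adjusted p = 0.0131, in 6 of the 8 fits). Of 29 measured sarcomere genes PDLIM3 and MYOZ1 fell, 0 rose, and the median change was -0.05. The ventricular myosin heavy chain MYH7 stood at 14.53 ± 0.04 and 14.50 ± 0.03 log2, near the top of the scale, where a difference of 0.04 was not detectable (adjusted p = 0.817).

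In calcium handling, RYR2, the ryanodine receptor that releases calcium from the sarcoplasmic reticulum, read 11.82, 11.76, 11.81 and 11.86 log2 in exercised and 11.41, 11.21, 11.37 and 11.26 in sedentary gilts. That rise of 0.50 was small but clear of the spread within groups (SE 0.0779, limma adjusted p = 0.0227, in 2 of the 8 fits). In the fit to all 16 arrays with the poly-A array group as a block it was 0.39 (adjusted p = 0.13). Without the block the adjusted p of that limma fit was 0.166. The dimmer RYR2 probe sets changed by 0.32 and 0.12 in the gilt fit. RYR2 was the only one of 23 calcium-handling genes to pass (median -0.03). The calcium pump gene ATP2A2 was 0.21 higher (adjusted p = 0.431) and its inhibitor PLN 0.17 lower (change -0.17, adjusted p = 0.351), each on the probe set with the smallest p. On the brightest probe sets ATP2A2 changed by -0.09 (limma adjusted p = 0.698) and PLN by -0.01 (adjusted p = 0.937).

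Of 18 measured ion channel and pump genes FXYD2 and KCNJ3 rose and 0 fell (median -0.03). FXYD2, a modulator of the sodium-potassium ATPase, read 5.89, 5.94, 5.81 and 5.94 log2 in exercised and 4.58, 5.13, 4.71 and 4.80 in sedentary gilts, without overlap. It rose by 1.09 (SE 0.117, limma adjusted p = 0.00831) and passed in all 8 fits with a gilt left out. KCNJ3, a subunit of an acetylcholine-gated potassium channel, rose by 0.56 from 4.85 ± 0.12 to 5.41 ± 0.10 (adjusted p = 0.0261, in 1 of the 8 fits). KCNQ1, a delayed rectifier channel, fell by 0.49 (adjusted p = 0.0475, in 0 of the 8 fits) on a probe set that is not its brightest.

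**Figure D3:**
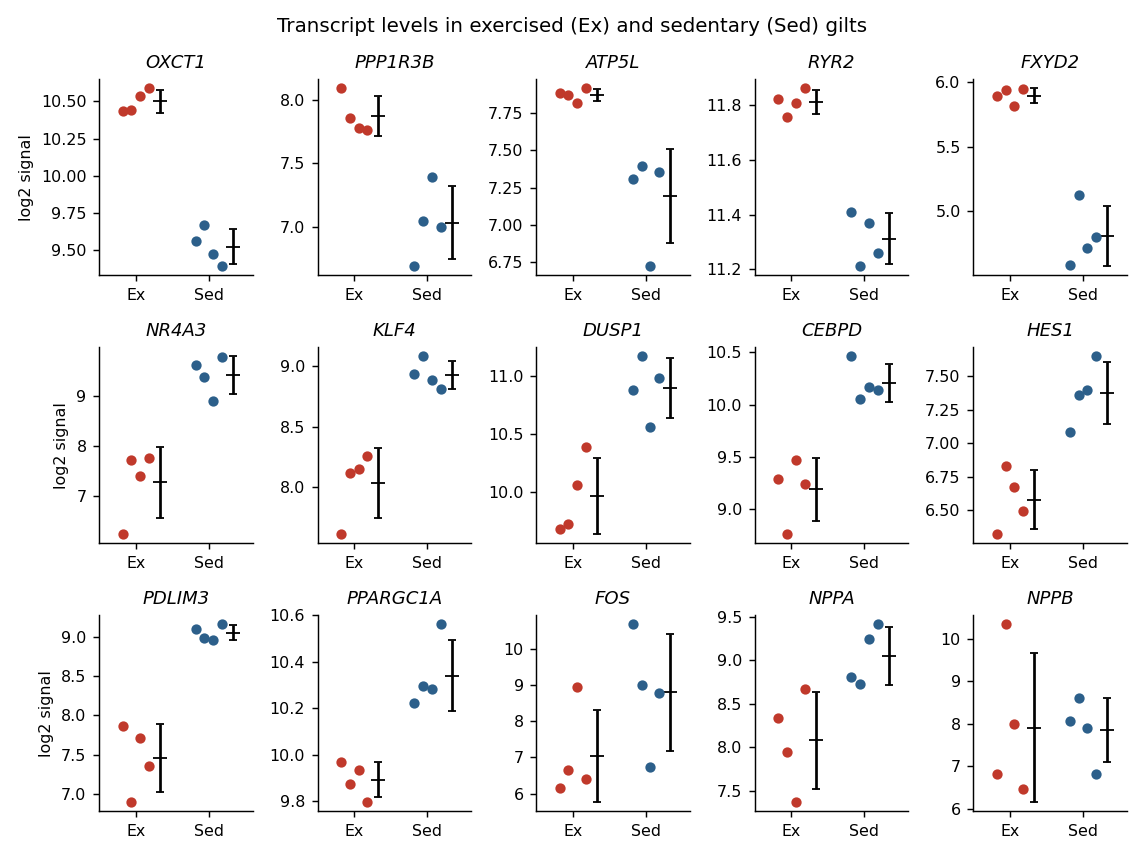
Log2 signal of 15 genes in the 4 exercised (Ex) and 4 sedentary (Sed) gilts, 1 point per gilt, with the mean and SD as bars and a separate vertical scale for each gene that does not start at 0. The groups do not overlap for OXCT1, NR4A3 and PDLIM3, and overlap for FOS and NPPB.

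Further bright genes changed outside these systems. DYNLL2, a dynein light chain, had the largest rise of the bright named genes. It read 8.01, 8.72, 8.38 and 8.56 log2 in exercised and 7.22, 7.06, 7.55 and 7.04 in sedentary gilts, a rise of 1.20 (SE 0.169, limma adjusted p = 0.0186, in 6 of the 8 fits). This came from 1 of its 2 probe sets, the brighter one changing by -0.04 (adjusted p = 0.934), and with the poly-A array group as a block the change was 1.12 (adjusted p = 0.103).

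The other bright rises were smaller. METTL23, a methyltransferase gene, rose by 0.72 (limma adjusted p = 0.0232) and EPB41L3, which links membrane to cytoskeleton, by 0.56 (adjusted p = 0.0295). WASHC5, a part of the endosomal WASH complex, rose by 0.54 (adjusted p = 0.048) and CUL2, the scaffold of the ubiquitin ligase that degrades hypoxia-inducible factors, by 0.54 (adjusted p = 0.0467). The dimmer WASHC5 probe sets changed by 0.02 and -0.13. LRRC28 rose by 0.54 (adjusted p = 0.0186) and the centrosome gene CEP85 by 0.53 (adjusted p = 0.0332; with the poly-A array group as a block 0.61 and 0.0934). RBM12B, an RNA-binding protein, fell by 0.59 (adjusted p = 0.0302), while its dimmer probe set changed by -0.14. These 7 genes passed in 0 to 4 of the 8 fits with a gilt left out.

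Among the named dim genes ATIC, TSTD1, TMEM185B and, as given above, FXYD2 passed in all 8 fits. ATIC, an enzyme of purine synthesis, read 5.46, 4.92, 5.15 and 5.26 log2 in exercised and 3.95, 4.16, 4.05 and 4.15 in sedentary gilts, and rose by 1.12 (SE 0.119, limma adjusted p = 0.00831). Its brightest of 4 probe sets was 0.16 higher (adjusted p = 0.473). TSTD1, a sulfurtransferase, rose by 0.96 from 5.11 ± 0.06 to 6.07 ± 0.18 (adjusted p = 0.00831). TMEM185B, a membrane protein gene, fell by 0.94 from 5.95 ± 0.14 to 5.01 ± 0.06 (adjusted p = 0.00642).

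RGS10, which shortens G protein signals, rose by 0.94 (limma adjusted p = 0.0131, in 6 of the 8 fits) and the semaphorin SEMA4D by 0.93 (adjusted p = 0.0269, in 2 of the 8 fits). PDYN, the precursor of the dynorphin opioid peptides, had the largest fall among dim genes. It read 5.15, 4.73, 5.07 and 4.91 log2 in exercised and 6.68, 5.84, 7.15 and 6.98 in sedentary gilts, a difference of -1.70 (SE 0.254, adjusted p = 0.0203, in 3 of the 8 fits). With the poly-A array group as a block the change of PDYN was as large, at -1.71, with an adjusted p of 0.0535. NLN, a peptidase that cleaves neurotensin, fell by 1.22 (adjusted p = 0.0332, in 2 of the 8 fits), while its brightest of 5 probe sets changed by -0.08. CENPI, a centromere protein, fell by 0.91 (adjusted p = 0.0203, in 3 of the 8 fits).

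Inflammatory genes gave calls in both directions. PTX3, a soluble pattern-recognition protein of acute inflammation, read 4.57, 4.34, 4.67 and 3.85 log2 in exercised and 6.22, 6.51, 5.85 and 5.00 in sedentary gilts, and fell by 1.54 (SE 0.311, limma adjusted p = 0.0417). It passed only in the fit without sedentary gilt 8, its lowest sedentary value (adjusted p = 0.0142), and did not pass with the poly-A array group as a block (change -1.62, adjusted p = 0.0625). The dimmer PTX3 probe set changed by 0.22. The cytokine gene TNF rose by 0.65 from 5.51 ± 0.21 to 6.16 ± 0.12 (adjusted p = 0.031, in 2 of the 8 fits). The death receptor gene FAS rose by 0.69 (adjusted p = 0.0429) and the chemokine gene CCL3L1 by 0.41 (adjusted p = 0.0461), each in 0 of the 8 fits. Both were dim, at mean levels of 5.00 and 5.39 log2. CCL3L1 did not pass with the poly-A array group as a block (change 0.44, adjusted p = 0.0674). These were 3 rises and 1 fall among 40 measured genes, with a median of -0.09 that was 0.04 without sedentary gilt 1. The level of the list in sedentary gilt 1 was 0.64, against -0.30 to 0.03 in the other 7 gilts, and this gilt was also highest in the neutrophil markers, a list whose measured members, ELANE apart, all belong to this one too.

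Interferon and MHC genes showed a median change of 0.32 with 29 of 34 above 0, but 0 passed. Exercised gilt 2 was at 0.74 and sedentary gilt 8 at -0.55 in the level of this list, and the other 6 gilts lay between -0.24 and 0.13. Without sedentary gilt 8 the median was 0.14, without exercised gilt 2 it was 0.19, without exercised gilt 6 it was 0.52, and in barrows it was 0.02. The 13 measured lymphocyte markers followed a similar order, with sedentary gilt 8 at -0.55, and a median change of 0.29 that was 0.09 without that animal. The 1 call among them went the other way: PRF1, the perforin gene of cytotoxic cells, named after its values were seen, fell by 0.69 (limma adjusted p = 0.018) from 5.52 to 4.83 log2. Their mean level was 5.65 to 6.07 log2 in exercised and 5.22 to 5.84 in sedentary gilts.

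Of 30 cell cycle genes ORC1, a subunit of the origin recognition complex, rose by 0.74 (limma adjusted p = 0.0321, in 1 of the 8 fits) and CENPI fell. ORC1 was dim, at a mean level of 4.93 log2. The median of 0.21 became 0.09 without sedentary gilt 8, whose list level was -0.53 against -0.01 to 0.20 in the other gilts.

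In the matrix, MMP14, a membrane-bound metalloproteinase, read 6.18, 6.08, 6.29 and 6.49 log2 in exercised and 6.86, 6.92, 6.91 and 7.01 in sedentary gilts. It fell by 0.66 (SE 0.101, limma adjusted p = 0.0216, in 2 of the 8 fits). The secreted gelatinase MMP9 rose by 0.52 from 4.86 ± 0.06 to 5.38 ± 0.15 (adjusted p = 0.0309, in 1 of the 8 fits). These were the only changes among the brightest probe sets of 42 matrix genes, whose median was -0.03. CILP, a cartilage matrix protein, fell by 0.57 (adjusted p = 0.0257, in 2 of the 8 fits) on a dim probe set, while its brighter one was 0.35 higher (adjusted p = 0.706). All 10 measured fibroblast markers had changes below 0, with a median of -0.27, and 0 passed. The level of these markers was 0.05, -0.17, -0.12 and -0.34 in exercised and 0.21, 0.15, 0.50 and -0.28 in sedentary gilts, so that sedentary gilt 8 lay among the exercised gilts. Without it the median was -0.42, and in barrows it was 0.13.

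**Figure D4:**
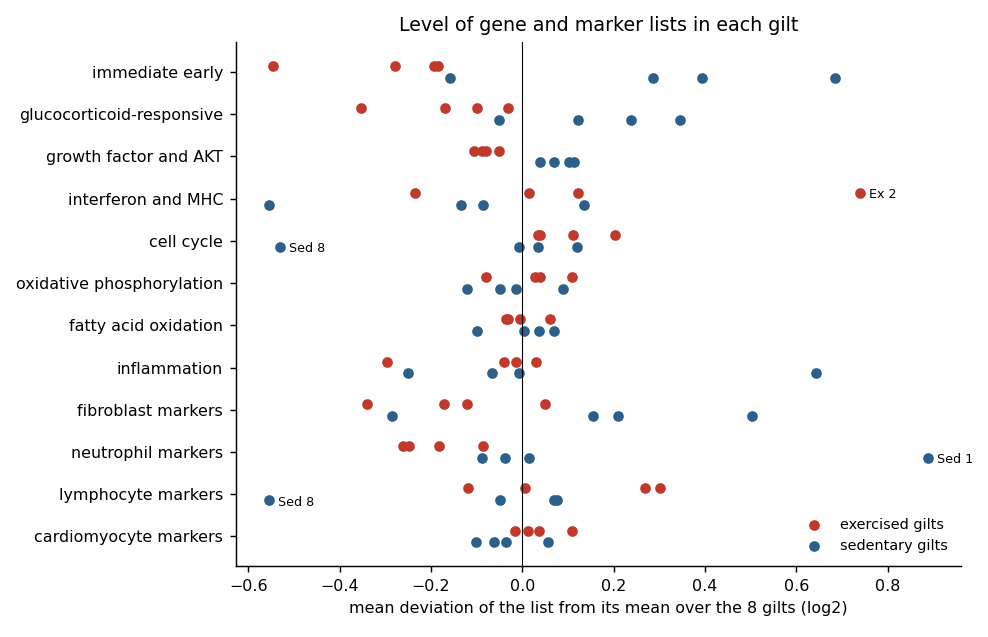
Level of 8 gene lists and 4 marker lists in each gilt, as the mean log2 deviation of the list's genes from their means over the 8 gilts. The groups overlap in most lists; sedentary gilt 1 stands at 0.89 in neutrophil markers, exercised gilt 2 at 0.74 in interferon genes and sedentary gilt 8 at -0.53 in cell cycle genes.

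Genes of growth signalling lay mostly slightly below 0 without calls. Of 26 genes of insulin-like growth factor and AKT signalling 0 passed on the brightest probe set and 21 lay below 0, with a median of -0.14. The mean level of the list did not overlap, at 7.36 to 7.42 log2 in exercised and 7.51 to 7.58 in sedentary gilts. This was not particular to growth signalling. Levels also did not overlap in the immediate early list, at 7.263 to 7.625 and 7.650 to 8.493. The same held for the sex steroid list, at 6.807 to 6.885 and 6.888 to 6.944, and for the angiogenesis list given below. IGF2 fell by 0.52 (limma adjusted p = 0.0259, in 2 of the 8 fits) on 1 of its 13 probe sets, while 2 others had an opposite sign with an unadjusted p under 0.05. Its brightest probe set changed by -0.62 (adjusted p = 0.0696). Of 38 angiogenesis and vascular tone genes 0 passed (median -0.08), with list levels of 7.61 to 7.62 and 7.67 to 7.70.

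Of 36 antioxidant genes GCLC, which makes the first step of glutathione synthesis, rose by 0.71 from 5.09 ± 0.14 to 5.80 ± 0.22 (limma adjusted p = 0.0295, in 1 of the 8 fits), and 0 fell (median 0.05). GCLC was read on the brightest of its 5 probe sets. The others changed by 0.00, 0.51, -0.11 and -0.25, and 1 of them had an opposite sign with an unadjusted limma p under 0.05. In the lists for AMPK and energy sensing (17 genes), adrenergic and cAMP signalling (22), coagulation (20), protein breakdown (45), cytosolic ribosome (58) and sex steroid response (28), 0 genes passed on the brightest probe set, with medians from -0.12 to 0.04. The estrogen receptor gene ESR1 was dim, at 4.44 ± 0.27 and 4.18 ± 0.22 log2, and its difference of 0.27 did not pass (adjusted p = 0.391). NCOR1, a corepressor of nuclear receptors, fell by 0.57 (adjusted p = 0.0396, in 2 of the 8 fits) on a probe set that is not its brightest.

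The classical marks of cardiac hypertrophy did not pass. Among 23 genes of the fetal and hypertrophic program 0 were called, with a median of -0.11. NPPA, the atrial natriuretic peptide gene, read 8.34, 7.95, 7.37 and 8.67 log2 in exercised and 8.81, 8.73, 9.25 and 9.42 in sedentary gilts. The groups did not overlap, although exercised gilt 6 came within reach of the lowest sedentary gilt, and the difference of -0.97 did not pass (SE 0.27, limma adjusted p = 0.0938). NPPB, the brain natriuretic peptide gene, ranged from 6.46 to 10.35 in exercised and from 6.83 to 8.62 in sedentary gilts. Its groups overlapped, with exercised gilt 2 at 10.35, and its difference of 0.05 had an SE of 0.772, so a change of that gene was not detectable here.

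Several vascular and metabolic genes also missed the threshold in gilts alone. The tissue factor gene F3 was 1.12 higher (SE 0.284, limma adjusted p = 0.0739), with values of 8.06, 7.91, 7.22 and 8.76 log2 against 6.93, 6.49, 6.92 and 7.13 that did not overlap. Its endothelial counterpart THBD, or thrombomodulin, had a difference of -0.79 (adjusted p = 0.0928). The lipoprotein receptor gene LRP8 was 1.31 higher on average (adjusted p = 0.309), but sedentary gilt 8 at 7.30 exceeded 3 of the 4 exercised gilts. NOS3, the endothelial nitric oxide synthase, differed by -0.27 (adjusted p = 0.173), ARG2, a mitochondrial arginase, by 0.65 (adjusted p = 0.098) and VEGFA, an angiogenic growth factor, by -0.34 (adjusted p = 0.447).

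The barrows, which share no animal with the gilts, offer the same contrast in other hearts. Of the 607 probe sets called in gilts 592, or 97.5%, had a change of the same sign in barrows, against 70.3% of all probe sets. At or above the 60th percentile of level 77 of the 86 calls had the same sign, against 65.1% of all probe sets there. The gilt rises had a median of 0.54 log2 in gilts and 0.42 in barrows, and the gilt falls -0.57 and -0.44. The barrows gave 161 calls of their own in limma, a share of 0.673%, with 90 probe sets called in both sexes, 14.8% of the gilt calls and 55.9% of the barrow calls. The barrow count was 3 to 22 with a barrow left out and 685 with the poly-A array group as a block, so these shares rest on a count that moves widely. Across all probe sets, which are not independent replicates, the changes in the sexes correlated at 0.578. The correlation was 0.416 at or above the 60th percentile of level and 0.657 below it, where most called probe sets lay.

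Several leading gilt genes had changes of similar size in barrows. In barrows OXCT1 was 0.90 higher and NR4A3 differed by -1.87, both short of the barrow threshold (limma adjusted p = 0.0831 and 0.145). FXYD2 at 1.05, ATIC at 0.80 and SEMA4D at 0.94 rose in barrows as well (adjusted p = 0.0248, 0.0248 and 0.0247). NLN, MSTO1 and RBM12B fell in barrows by 1.21, 0.73 and 0.81 (adjusted p = 0.00771, 0.0282 and 0.0384). Other gilt calls kept their sign in barrows at a much smaller size and did not pass there. Among them were CEBPD at -0.27, DUSP1 at -0.38, KLF4 at -0.39, PPP1R3B at 0.27, EPB41L3 at 0.12 and RYR2 at 0.22. Of the 607, a set chosen on the gilt values, 472 had a larger change in gilts than in barrows.

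A smaller set of gilt calls had no counterpart in barrows. Of the 607, 15 had the opposite sign there, among them PDLIM3, PPARGC1A and GADD45B. PDLIM3 stood at 7.45 ± 0.43 log2 in exercised gilts, 9.06 ± 0.10 in sedentary gilts, 7.89 ± 0.82 in exercised barrows and 7.83 ± 0.40 in sedentary barrows (n = 4 each). The sedentary gilts were thus the group that stood apart. The change in gilts was 1.66 log2 below that in barrows (difference -1.66, SE 0.453, unadjusted p = 0.00218 in the limma fit to all 16 arrays), which did not pass after adjustment. PPARGC1A changed by 0.02 in barrows (unadjusted p of the difference 0.107) and DYNLL2 by 0.08 (unadjusted p 0.0556).

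Tested directly, the share of probe sets called for the difference between the sexes in limma was 0%, 0 of 23935, with 621 at an unadjusted p under 0.05. Among the named genes with the smallest p for the difference, MUC15, a membrane mucin, rose by 0.67 in gilts and changed by -0.18 in barrows (difference 0.85, SE 0.17, unadjusted p = 0.00014). BMPR1B, a bone morphogenetic protein receptor, changed by -0.18 in gilts and 0.69 in barrows (difference -0.87, SE 0.176). APH1A, a subunit of gamma-secretase, changed by -0.72 and 0.48 (difference -1.20, SE 0.316). With 4 animals per group these differences had adjusted p-values near 1, and a call in gilts that is missing in barrows does not show that the sexes differ.

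**Figure D5:**
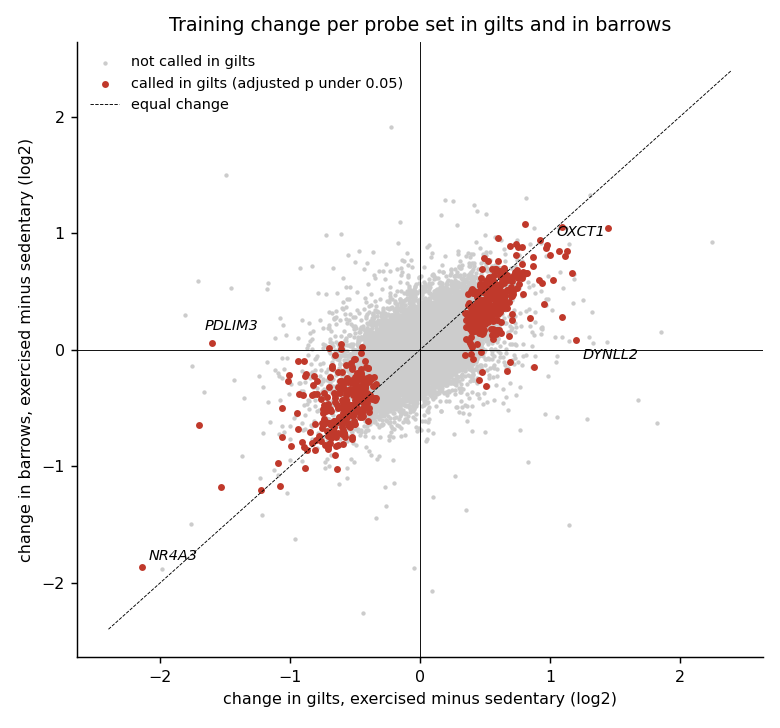
Change with training per probe set in gilts (horizontal) and barrows (vertical), log2, for all 23935 probe sets; red points passed in gilts, and the dashed line marks equal change. Of the 607 red points 592 have the same sign in both sexes, and PDLIM3 lies at -1.60 in gilts and 0.06 in barrows.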

How the data were processed

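The values are log2 signals per probe set from the authors' deposited series table of 16 arrays. The summarisation and normalization are not given in the sources used here. The sorted values of the arrays differed by at most 0.183, as after quantile normalization, and nothing further was applied. Arrays carry no read depth, so the number of animals, 4 per group, limits the precision. Per the labels each array is a separate animal.

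Leaving out 188 Affymetrix controls of 24123 probe sets left 23935. GEO's platform annotation, possibly dated, gave 1 symbol for 10069 of them, several for 198 and none for 13668. RefSeq (Sscrofa11.1) matched 9961 by Entrez identifier and changed 0 symbols. Probe sets with several symbols were not used to name a gene.

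Exercised and sedentary gilts were compared in limma 3.58.1 (lmFit and eBayes, R 4.3.3) on the 8 gilt arrays (6 residual and 3.21 prior degrees of freedom). Tests were two-sided and p-values were adjusted by Benjamini-Hochberg over the 23935. Barrows were fitted the same way. The difference between the sexes came from all 16 arrays with a mean for each group. Array measures were compared by exact permutation. A difference is exercised minus sedentary, and "rose" and "fell" mean an adjusted p under 0.05. Errors after ± are SD.

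Per gene the probe set with the smallest p was named: the 10 largest rises and falls past the threshold at or above the 60th percentile of level, the 5 largest of each below it, up to 4 members of each list by smallest p, and a set of cardiac genes in any case. Genes named for the difference between the sexes were the 4 with the smallest p in each direction. Lists use the brightest probe set per gene, and a list level is the mean log2 value, or deviation, of its genes. The gene set, the 26 lists and the 16 marker lists were chosen with earlier results of these data known. The fits were tested on simulated data. Alternatives were other normalizations, level filters, variance models, array weights, array groups, a replicate block, other thresholds and leaving out each array. Python 3.11.15 and matplotlib 3.10.9 drew the figures.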

Additional observations from a re-analysis of the deposited data

Results flagged for a closer look

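Within each training group of 4 gilts, single arrays were compared with the other 3 by Dixon's ratio, the gap to the nearest array over the whole range of the group. Of 280 such groups examined, 23 passed the 95% critical value, where chance alone gives about 1 in 20. Among array measures these were, in exercised gilts, the hybridisation controls at a ratio of 0.938 with exercised gilt 4 lowest at 8.66 log2, the actin 3' to 5' gap at 0.855 and the GAPDH gap at 0.865. In sedentary gilts the first principal component had a ratio of 0.871, with sedentary gilt 8 apart.

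Among exercised gilts the genes with 1 array apart were HSP90AA1 at a ratio of 0.959, TAP1 at 0.926, THBD at 0.899, CANX at 0.873, IRF7 at 0.871, GSS at 0.868, ACACA at 0.857, CTSC at 0.834, RPS28 at 0.833 and NDUFA1 at 0.832. Of these CANX was called, and it fell by 0.50 (limma adjusted p = 0.0461) on a dim probe set while 1 other of its 6 probe sets had an opposite sign with an unadjusted p under 0.05.

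Among sedentary gilts they were SLA-DMA at 0.970, CKB at 0.938, SLC2A4 at 0.914, XIRP1 at 0.902, GRK5 at 0.894, ATP5L at 0.875, CANX at 0.872, NUSAP1 at 0.864 and KCNQ1 at 0.836. ATP5L, a called rise, read 6.72 log2 in sedentary gilt 4 against 7.31 to 7.39 in the other sedentary gilts. NUSAP1, a spindle protein gene, rose by 0.63 (limma adjusted p = 0.0499), and passed in 1 of the 8 fits with a gilt left out. With the poly-A array group as a block it was 0.56 higher and did not pass (adjusted p = 0.159). The NUSAP1 probe set named here is not its brightest, which was 0.51 higher in the gilt fit and did not pass (adjusted p = 0.468).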

How the results depend on the processing

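The 607 probe sets called in gilts became 592 after quantile normalization, 584 with median centring, 767 with a trended and robust variance model and 890 in a fit to all 16 arrays. Larger moves were 1302 with the poly-A array group as a block, 1550 with array weights, 12 above the 40th and 1 above the 60th percentile of level, 1573 at an adjusted p of 0.1 and 386 with a fold limit of 0.5 log2. Leaving out a gilt gave 39 to 732. With the replicate block, which used the animal number as a pair, 0 passed in limma (4561 at an unadjusted p under 0.05, smallest adjusted p 0.067). Exercised gilt 6 and sedentary gilt 8 had no partner of the same number there, so its estimate rested on numbers 1, 2 and 4 alone. The block also left fewer residual degrees of freedom than the 6 of the main fit, which by itself lowers the number of calls. With it OXCT1 changed by 0.90 and NR4A3 by -2.18. The deviations of same-numbered gilts from their group means correlated at -0.03, 0.06 and 0.09 for numbers 1, 2 and 4. Whether these gilts share more than a number was not tested. Of 50 called named genes 0 kept the call under that replicate block, while all 50 kept it with array weights and with the trended model, and 44 without sedentary gilt 8. The barrow count of 161 became 685 with the poly-A array group as a block and 3 to 22 with a barrow left out. The count of 0 for the difference between the sexes was 0 under every alternative run. The sign turned for genes that were not called: NPPB was -0.26 with array weights, and -0.76 to 0.53 with a gilt left out, and MYH7 was -0.0058 after quantile normalization. In these cases the cause was not tested. The 4 animals per group and the low signal of most called probe sets limit what single calls can show.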
